A study of Homo sapiens with 8 samples.

Results

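The SLC25 genes encode the mitochondrial carrier family, and every gene whose symbol is SLC25A followed by a number was taken as a member, which gave 48 of the 20453 genes listed in each of the 8 libraries. The study sequenced mRNA and ribosome footprints (the stretches of mRNA that ribosomes shield from nuclease) from cells labelled THP-1, a human monocytic leukaemia line, transduced with wild-type DNMT3A or with mutant DNMT3A. DNMT3A is a DNA methyltransferase that is often mutated in acute myeloid leukaemia, and the series title places the study in branched-chain amino acid metabolism. Each of the 4 groups (wild-type mRNA, mutant mRNA, wild-type footprint, mutant footprint) had 2 libraries, and both genotypes carry a transduced DNMT3A, so no untransduced cells were compared. Whether a line was 1 clone or a mixed population is not given in the sources used here.

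Total counts were 3415999 to 4523475 per mRNA library and 603360 to 1988513 per footprint library, so the mutant footprint values are the least precise. A count of 3 corresponded to 0.671 to 0.885 CPM (counts scaled per 1000000 of the library) in mRNA and to 1.54 to 4.89 CPM in footprints. DNMT3A mRNA stood at 291 and 294 CPM with the wild-type gene and at 240 and 244 CPM with the mutant. Its footprints were level, at 137 and 153 CPM in wild type and 143 and 148 CPM in the mutant (log2 -0.003, edgeR adjusted p = 0.99). The counts do not tell the transduced copy from the cell's own. The labelled cell type had little support in the counts: of 15 monocyte and macrophage markers, 4 reached 10 CPM in every mRNA library and 7 (MPO, ELANE, S100A8, S100A9, FCN1, CD163 and IRF8) had no count in any of the 8 libraries. Of 16 erythroid and megakaryocyte markers, 15 reached that level, with a summed mRNA level of 3270 to 3318 CPM in wild type and 2831 to 2862 CPM in the mutant. The values below therefore describe the libraries under their labels and not monocytes as such.

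The 2 mRNA libraries of a genotype differed slightly more than counting alone predicts (chi-square per degree of freedom 1.08 in wild type and 1.31 in the mutant). The 2 footprint libraries of each genotype differed by no more than sampling noise (0.991 and 0.928, chi-square p = 0.732 and p = 1). Nothing in the labels tells whether the replicates are separate cultures. The p-values below then measure only how far these libraries vary, perhaps for technical reasons, and in footprints little more than counting error. Counted as 1 sample per genotype, the footprint libraries would leave the footprint comparison between genotypes with no spread to test.

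Mitochondrial carriers are small proteins of the inner membrane that exchange one solute for another between the cytosol and the matrix. They are made in the cytosol and are threaded into the inner membrane by the TOM and TIM complexes. Their cargoes include ADP and ATP, phosphate, carboxylates and acylcarnitines, amino acids, cofactors, glutathione and iron, and a few members sit in the outer membrane or in peroxisomes. In developing red cells the iron carrier SLC25A37 (mitoferrin-1) and the glycine carrier SLC25A38 feed haem synthesis, while SLC25A44 brings branched-chain amino acids into mitochondria.

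The first bases of a transcript can mark how it is translated: an mRNA that opens with C followed by a run of pyrimidines is of the kind known as 5′ terminal oligopyrimidine mRNA. The annotated starts of 8 members picked from the ribosome results are therefore shown first (RefSeq, GRCh38.p14). The 30-base windows hold 10 bases before and 20 bases from the start. Capitals mark an unbroken pyrimidine run that begins on the first transcribed base with C and holds at least 4 bases.
SLC25A17: ggcggggattgcgactctcacaccctgagc
SLC25A20: aaaagtgggtgaaaggtcggcggcgccggc
SLC25A4: gccaggcggcggccccctagcgtcgcgcag
SLC25A3: gacgtccggcCTCTgtgagccgcaaccttt
SLC25A5: cttcgctccgCCCCgcagcgccggagtcaa
SLC25A6: gctgctccgtCCTTTCggtccaggcggcgg
SLC25A33: gccgggctctagctccccgccgggctcgcg
SLC25A23: acggctagccgtcaccacctcccgcaagtg

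The windows of SLC25A4 (chr4:185143256-185143285), SLC25A5 (chrX:119468434-119468463), SLC25A3 (chr12:98593676-98593705) and SLC25A33 (chr1:9539455-9539484) lie on the plus strand. Those of SLC25A6 (chrX:1392094-1392123), SLC25A17 (chr22:40819327-40819356), SLC25A20 (chr3:48898863-48898892) and SLC25A23 (chr19:6459773-6459802) lie on the minus strand. SLC25A6 opens with a run of 6 pyrimidines. The runs of SLC25A3 and SLC25A5 hold 4 bases and fall short of the 5 pyrimidines required in the next count. A start of C followed by at least 4 pyrimidines was present in 3 of 50 annotated member starts (6%, in SLC25A6, SLC25A21 and SLC25A22) and in 4.079% of the 34960 starts in the table. In wild-type footprints against mRNA SLC25A6 was lower (log2 -1.19), while SLC25A21 (0.75) and SLC25A22 (0.28), whose windows are not shown, were higher. Whether such a start goes with the footprint level was not tested. The 50 starts belong to the 40 members that the promoter table holds.

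In the wild-type libraries the carriers differed widely in how many footprints they had for their mRNA. The ratio of footprint CPM to mRNA CPM ran from 0.135 for SLC25A23 to 2.42 for SLC25A17 over the 32 members tested in both assays, a 17.9-fold span around a median of 0.978. By edgeR, 13 members were higher in footprints than in mRNA, 9 were lower and 10 did not pass the test (adjusted p under 0.05). That is 22 of 32 (68.8%) against 70.1% of all 9166 genes (35.5% higher and 34.5% lower), so the share of carriers off the typical ratio was close to the background. Of all genes, 0.393% lay below SLC25A23 and 4.29% above SLC25A17. The calls of 17 of the 22 members held under all 15 alternative settings tried. Those settings include fits without a mutant library, which can change this contrast only through the filter, the scaling and the shared spread. Of the others, SLC25A22, SLC25A25 and SLC25A26 were lost without the second wild-type mRNA or the first wild-type footprint library, SLC25A32 without the second wild-type footprint library, and SLC25A44 without the second wild-type mRNA or either wild-type footprint library. The counted feature (exon or coding sequence) is not given in the sources used here, so a ratio also holds the share of each transcript that is coding, which was not measured.

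**Figure D1:**
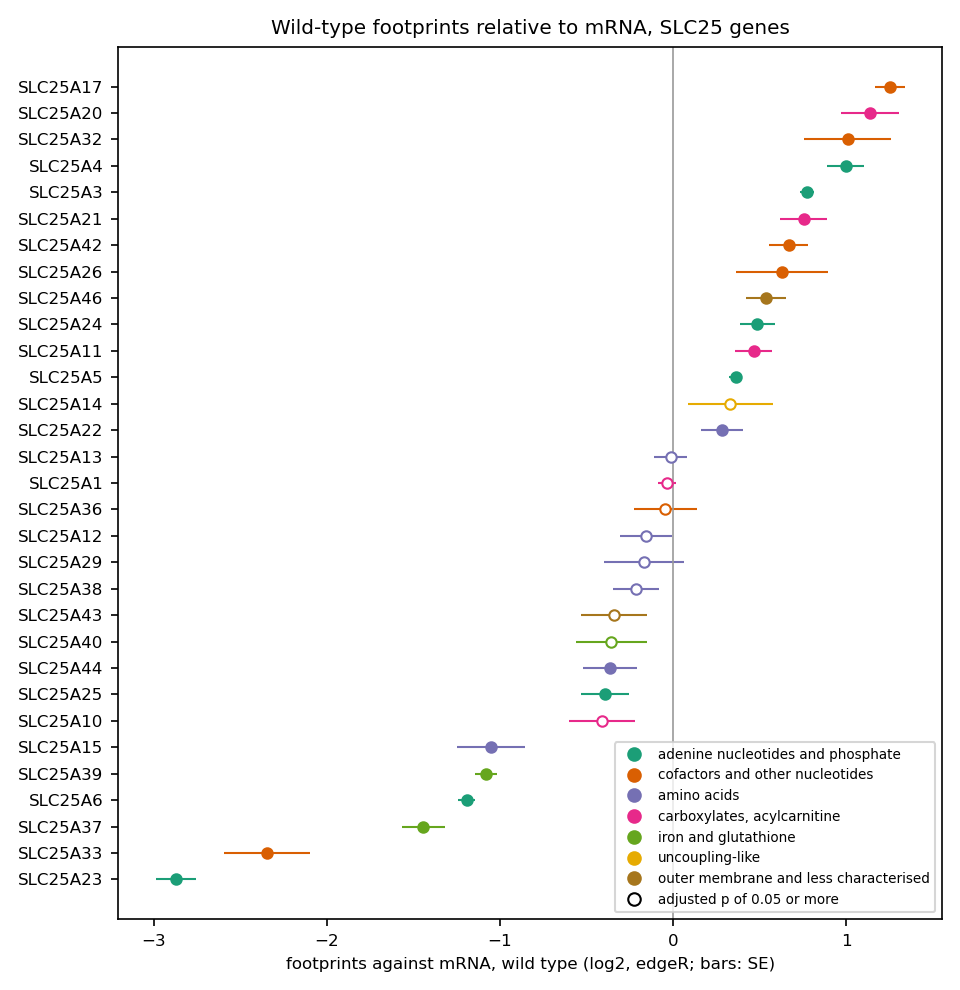
Footprints against mRNA in the wild-type libraries for 31 of the 32 SLC25 members tested in both assays, as the log2 difference from edgeR (x axis, 0 is the scale of each assay's total after TMM), 1 row per gene. Points are estimates, bars are SE, colours are cargo groups and open points have an adjusted p of 0.05 or more; SLC25A23 and SLC25A33 sit below -2 and SLC25A17 above 1.

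The low end was made of carriers for quite different cargoes. SLC25A23 (chr19:6436081-6459792), a calcium-regulated carrier that exchanges ATP-magnesium for phosphate, had 192 and 191 CPM of mRNA but 22.1 and 29.8 CPM of footprints in wild type (log2 -2.87, SE 0.115, edgeR adjusted p = 2.3e-36). The mutant libraries gave 177 and 179 CPM of mRNA and 31.2 and 35.8 CPM of footprints, so the footprint level was far below the mRNA level in every library. SLC25A41, which overlaps SLC25A23, had at most 12 counts in any library. SLC25A33 (chr1:9539465-9585173), a pyrimidine nucleotide carrier, had 31.9 and 33.8 CPM of mRNA and 8.19 and 5.13 CPM of footprints in wild type (log2 -2.35, SE 0.247, edgeR adjusted p = 1e-13); its footprints were only 13 and 10 counts. In the mutant its ratio was 0.259, against 0.203 in wild type.

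Of 3 tested iron and glutathione carriers 2 were lower in footprints and 1 was not called (66.7% called, against 70.1% of all genes). SLC25A37 had 88.5 and 98 CPM of mRNA and 34.7 and 34.9 CPM of footprints in wild type, a log2 difference of -1.44 (SE 0.125, edgeR adjusted p = 2e-17). SLC25A39 (chr17:44319628-44324823), which carries glutathione into the matrix, had 391 and 424 CPM against 193 and 197 CPM (log2 -1.08, SE 0.0623, edgeR adjusted p = 1.1e-26). Its relative SLC25A40, also a glutathione carrier, had 22.4 and 22.2 CPM against 16.4 and 18.5 CPM and was not called (log2 -0.36, edgeR adjusted p = 0.11).

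Of 7 carriers of cofactors and other nucleotides 4 were higher, 2 were lower and 1 was not called (85.7% called, against 70.1% of all genes). SLC25A17 (chr22:40769630-40819346), the peroxisomal carrier of coenzyme A and related nucleotides, had 74.4 and 74.1 CPM of mRNA and 191 and 168 CPM of footprints, 2.38-fold more (edgeR adjusted p = 1.1e-22). SLC25A32, the mitochondrial folate carrier, was 2.01-fold higher in footprints (15.8 and 21.1 CPM) than in mRNA (10.9 and 7.83 CPM; edgeR adjusted p = 0.00028). SLC25A42, a mitochondrial coenzyme A carrier, and SLC25A26, the S-adenosylmethionine carrier, were the other members higher in footprints, at log2 0.67 and 0.63.

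Of 5 carboxylate and acylcarnitine carriers 3 were higher in footprints and 2 were not called (60% called, against 70.1% of all genes). SLC25A20 (chr3:48856926-48898882), which brings acylcarnitines in for fatty acid oxidation, had 22.7 and 19.5 CPM of mRNA and 58 and 37 CPM of footprints (2.20-fold, edgeR adjusted p = 8.7e-09). The oxodicarboxylate carrier SLC25A21 was higher at log2 0.75 and the oxoglutarate-malate carrier SLC25A11 at 0.47, while the citrate carrier SLC25A1 was at -0.03 (SE 0.0504). Of 7 amino acid carriers, 1 was higher, 2 were lower and 4 did not pass (42.9% called, against 70.1% of all genes). Higher was the glutamate carrier SLC25A22 (log2 0.28), and lower were the ornithine carrier SLC25A15 (-1.05) and SLC25A44 (-0.37). SLC25A46, an outer membrane member linked to mitochondrial shape, was higher at 0.54, and SLC25A43 and the uncoupling-like SLC25A14 were not called.

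The order of these ratios was much the same in the mutant libraries. The mutant ratios ran from 0.188 to 2.33 with a median of 1.01, and their log2 values followed those of wild type with Pearson r = 0.968 over the 32 genes. This r is across genes, which share their libraries and their transcript structure, and is given as a description.

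The 3 ADP/ATP carriers, which exchange matrix ATP for cytosolic ADP, had unlike footprint levels for their mRNA. SLC25A5 (chrX:119468444-119471396), the form of dividing cells, had 1198 and 1196 CPM of mRNA and 1537 and 1564 CPM of footprints in wild type (log2 0.36, SE 0.0379, edgeR adjusted p = 8.6e-14). SLC25A6 (chrX:1386152-1392113) went the other way, with 976 and 997 CPM of mRNA but 423 and 446 CPM of footprints, a 2.29-fold deficit (log2 -1.19, SE 0.0482, edgeR adjusted p = 3.8e-36). SLC25A4 (chr4:185143266-185150382), the form best known from heart and skeletal muscle, had 55.2 and 49.9 CPM of mRNA and 108 and 103 CPM of footprints (log2 1.00, SE 0.106, edgeR adjusted p = 1.4e-13). As a share of the counts of these 3 genes, SLC25A6 made up 43.8% and 44.5% of wild-type mRNA and 20.5% and 21.1% of wild-type footprints. The mitochondrial phosphate carrier SLC25A3, which supplies phosphate for ATP synthesis, had 677 and 683 CPM of mRNA and 1181 and 1166 CPM of footprints (log2 0.77, edgeR adjusted p = 1.2e-28). Of the ATP-magnesium carriers related to SLC25A23, SLC25A24 was higher in footprints (log2 0.49) and SLC25A25 lower (-0.39). RefSeq lists 9 pseudogenes named after SLC25A5, 6 after SLC25A6 and 3 after SLC25A3, and how reads matching several places were counted is not given in the sources used here, so these levels are uncertain. The same limit holds for other members with pseudogenes, among them SLC25A1 and SLC25A15 (5 each) and SLC25A24 and SLC25A39 (2 each).

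**Figure D2:**
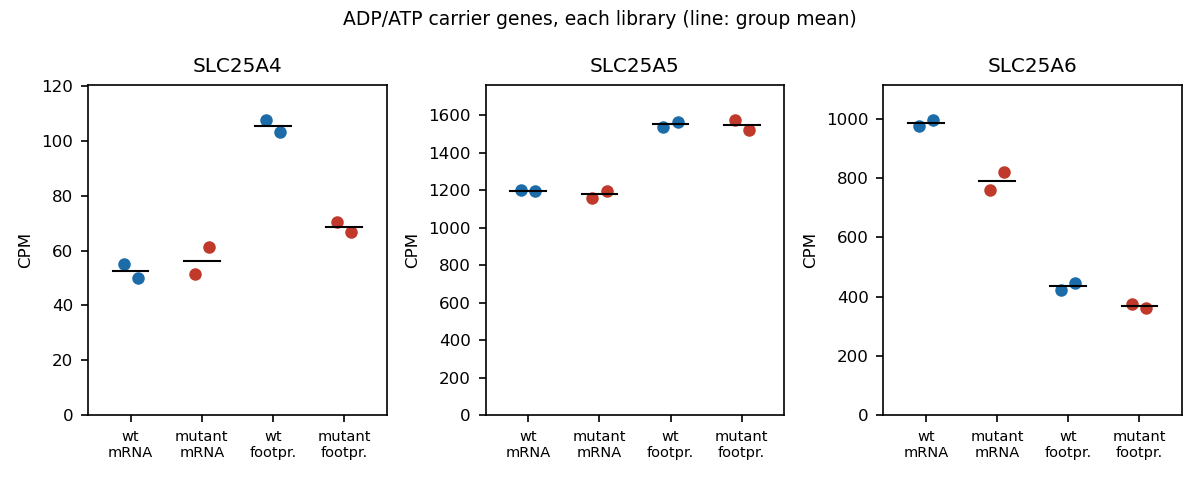
CPM (y axis, from 0, own scale in each panel) of the ADP/ATP carrier genes SLC25A4, SLC25A5 and SLC25A6 in each of the 8 libraries; points are libraries and lines are means of the 2 libraries of a group. SLC25A4 footprints are 108 and 103 in wild type and 70.6 and 66.8 in the mutant, SLC25A5 is level, and SLC25A6 is lower in the mutant in both assays.

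The mutant was then compared with wild type in mRNA. Of 38 members tested, 4 were higher (SLC25A40, SLC25A26, SLC25A21 and SLC25A3), 7 were lower (SLC25A6, SLC25A1, SLC25A39, SLC25A22, SLC25A10, SLC25A25 and SLC25A11) and 27 did not pass the edgeR test. The 11 called members are 28.9% of those tested, against 37.7% of all 10756 genes (18.9% higher and 18.9% lower), so the carriers were not called more often than other genes. The median log2 fold change was 0.00 over the members and -0.002 over all genes. In 23 of the 38 the libraries of the genotypes did not overlap, against 67.9% of all genes. These calls rest on a spread between libraries of about 2.25% (common biological coefficient of variation); with an assumed 10%, edgeR's likelihood ratio test called 0 members (5 at an unadjusted p under 0.05), and DESeq2 called 4. The summed erythroid and megakaryocyte markers were also lower in the mutant mRNA libraries (2831 to 2862 against 3270 to 3318 CPM), and their part in these differences was not tested.

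**Figure D3:**
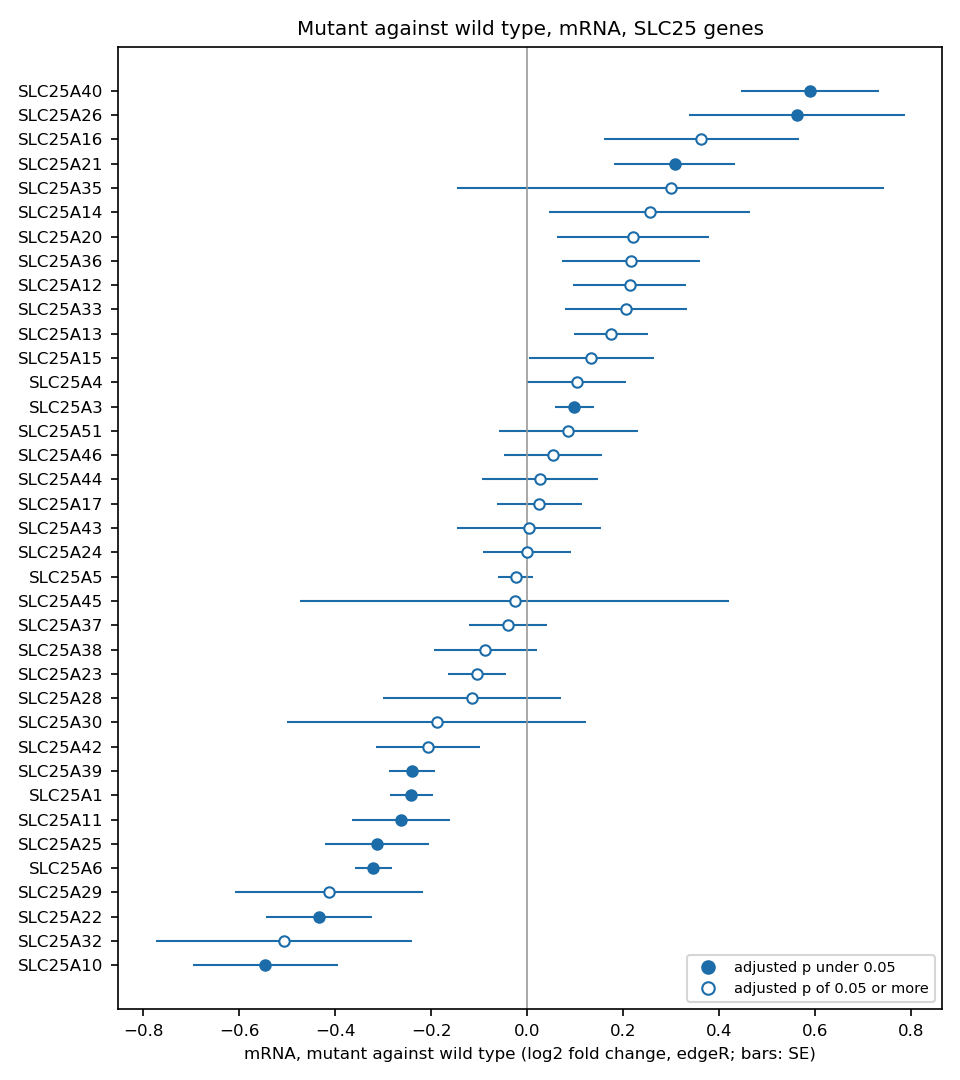
Mutant against wild type in mRNA for 37 of the 38 SLC25 members tested, as the log2 fold change from edgeR (x axis), 1 row per gene; points are estimates, bars are SE and filled points have an adjusted p under 0.05. SLC25A40 is the highest at 0.59 and SLC25A10 the lowest at -0.55, and the filled points lie on both sides of 0.

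The 2 glutathione carriers changed in opposite directions. SLC25A40 (chr7:87833568-87876360) rose from 22.4 and 22.2 CPM in wild type to 30.8 and 36.7 CPM in the mutant, 1.50-fold (log2 0.59, SE 0.144, edgeR adjusted p = 0.0003). SLC25A39 fell from 391 and 424 CPM to 343 and 349 CPM (log2 -0.24, SE 0.0477, edgeR adjusted p = 6.6e-06). Neither gene had overlapping genotypes in mRNA, nor did 67.9% of all genes. The call of SLC25A39 was lost without the second wild-type mRNA library and when the trend of the difference with local gene density was removed (log2 -0.11, edgeR adjusted p = 0.059).

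Of 5 carboxylate and acylcarnitine carriers 3 were lower, 1 was higher and 1 was not called in mRNA, beside 18.9% of all genes in each direction, and their median log2 fold change was -0.24 (all genes -0.002). The balance rests on few firm calls, since 3 of these 4 calls were lost under several alternatives. SLC25A1 (chr22:19175581-19178736), which exports citrate for fatty acid and sterol synthesis, went from 531 and 558 CPM to 435 and 490 CPM (log2 -0.24, SE 0.044, edgeR adjusted p = 7.7e-07). SLC25A10, the dicarboxylate carrier, went from 33.9 and 26.6 CPM to 17.5 and 23.7 CPM (log2 -0.55, SE 0.151, edgeR adjusted p = 0.0016). SLC25A11 went from 55.5 and 64.5 CPM to 51.2 and 49.6 CPM (log2 -0.26, edgeR adjusted p = 0.031), and SLC25A21 rose from 32.2 and 32 CPM to 39.5 and 40 CPM (log2 0.31, edgeR adjusted p = 0.041). SLC25A10 was not called without the first wild-type or the first mutant library, and SLC25A11 and SLC25A21 were each lost in 8 of the 11 alternatives, among them the fits without the second wild-type and without either mutant mRNA library (for SLC25A21 also without the first wild-type library).

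Among adenine nucleotide and phosphate carriers SLC25A6 fell from 976 and 997 CPM to 761 and 822 CPM, 1.25-fold lower (log2 -0.32, SE 0.0388, edgeR adjusted p = 1.8e-14). SLC25A5 mRNA stayed at 1160 and 1195 CPM in the mutant (log2 -0.02, edgeR adjusted p = 0.66), so the share of SLC25A6 among the 3 ADP/ATP genes was 38.6% and 39.5% in mutant mRNA. SLC25A25 fell from 48.4 and 59.3 CPM to 40.9 and 47.3 CPM (log2 -0.31, edgeR adjusted p = 0.014). SLC25A3 had 732 and 724 CPM in the mutant (log2 0.10, edgeR adjusted p = 0.043), a difference whose sign turned to -0.07 once the trend with gene density was removed. The calls of SLC25A25 and SLC25A3 were each lost without the second wild-type or the first mutant mRNA library, and that of SLC25A3 also without the first wild-type library.

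In the other groups SLC25A22 fell from 56.4 and 53 CPM to 39.5 and 41.2 CPM (log2 -0.43, SE 0.111, edgeR adjusted p = 0.00055). The call held with each library left out and was lost with DESeq2 and with the trend of gene density removed (log2 -0.23). SLC25A26 rose from 9.44 and 8.73 CPM to 15.5 and 10.9 CPM (log2 0.56, SE 0.225, edgeR adjusted p = 0.036), and this call was lost without either wild-type library or the first mutant library and with the replicate number as a block (edgeR adjusted p = 0.053). Removing the trend with gene density also ended the calls of SLC25A10 (log2 -0.36), SLC25A25 (-0.16), SLC25A11 (-0.077), SLC25A21 (0.15) and SLC25A26 (0.40). The calls of SLC25A40, SLC25A6 and SLC25A1 held in every alternative but the assumed 10% variation. No uncoupling-like, outer membrane or less characterised member was called.

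In footprints 4 of 32 members were called, SLC25A13 higher and SLC25A4, SLC25A6 and SLC25A1 lower, and 28 did not pass. That is 12.5%, against 21.2% of all 9181 genes (10.3% higher and 10.9% lower). In 18 of the 32 the genotypes did not overlap, against 58.8% of all genes. SLC25A6 footprints went from 423 and 446 CPM to 374 and 362 CPM (log2 -0.24, SE 0.073, edgeR adjusted p = 0.011), and SLC25A1 footprints from 539 and 537 CPM to 455 and 476 CPM (log2 -0.21, SE 0.0667, edgeR adjusted p = 0.013), so both carriers were lower in the 2 assays. SLC25A13, an aspartate-glutamate carrier of the malate-aspartate shuttle, rose from 102 and 93.5 CPM to 129 and 121 CPM (log2 0.37, SE 0.127, edgeR adjusted p = 0.026), beside mRNA of 92.4 and 101 against 108 and 112 CPM (log2 0.18, edgeR adjusted p = 0.058). Without the first mutant footprint library 0 members were called (6 at an unadjusted p under 0.05), and without the second 1 was called. DESeq2 and an assumed 10% variation each called 0 members (3 and 1 at an unadjusted p under 0.05). Summed erythroid and megakaryocyte markers were 4163 to 4295 CPM in wild-type and 3865 to 3868 CPM in mutant footprints, and their part was not tested.

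Of the 11 members called in mRNA, 10 had the same sign in footprints (90.9%), against 82.2% for all genes called in mRNA and tested in footprints. Called with the same sign in both assays were 2 of the 11, against 1155 of 3849 over all genes. The exception was SLC25A11, with a footprint log2 fold change of 0.08. SLC25A40 footprints were 16.4 and 18.5 CPM in wild type and 22.8 and 29.3 CPM in the mutant. These did not overlap, as in 58.8% of all genes, but did not pass the test (log2 0.53, SE 0.276, edgeR adjusted p = 0.16).

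**Figure D4:**
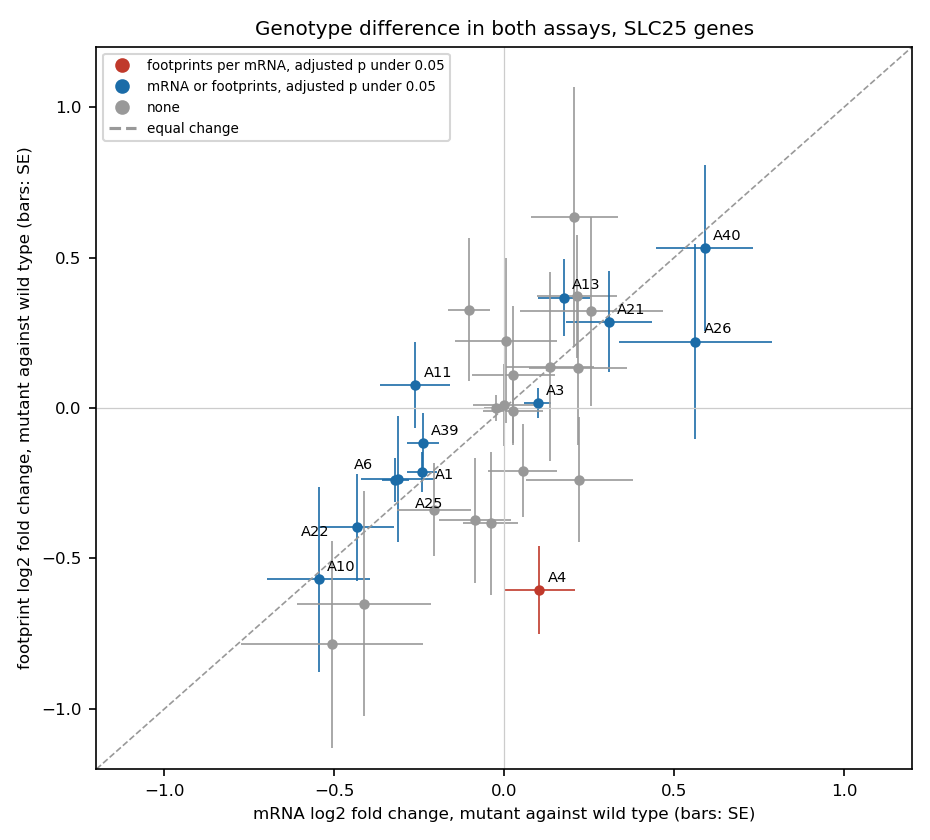
Log2 fold change, mutant against wild type, in mRNA (x axis) and in footprints (y axis) for 31 of the 32 SLC25 members tested in both assays; points are edgeR estimates, bars are SE and the dashed line marks equal change; point labels leave out SLC25. SLC25A4, at 0.10 in mRNA and -0.61 in footprints, lies below the line, and SLC25A40, at 0.59 and 0.53, lies close to it.

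SLC25A4 was the 1 member whose footprints per mRNA differed between the genotypes, lower in the mutant, against 4.13% of all 9166 genes (1.77% higher and 2.37% lower); the other 31 members did not pass. Its mRNA was 55.2 and 49.9 CPM in wild type and 51.4 and 61.3 CPM in the mutant, which overlap (log2 0.10, SE 0.103, edgeR adjusted p = 0.45). Its footprints were 108 and 103 CPM in wild type and 70.6 and 66.8 CPM in the mutant, 1.52-fold lower and not overlapping (log2 -0.61, SE 0.146, edgeR adjusted p = 0.00096). The genotypes did not overlap in footprints in 58.8% of all genes. Footprints per mRNA were 1.64-fold lower (log2 -0.71, SE 0.181, edgeR adjusted p = 0.0097), with the ratio at 2.01 in wild type and 1.22 in the mutant. The mutant footprint values rest on 68 and 41 counts, against 171 and 201 in wild type. The difference of the ratio stayed below 0 in all 16 alternatives (log2 -0.84 to -0.59, adjusted p 0.0018 to 0.62), and the edgeR call was lost without the second wild-type mRNA library or without either mutant footprint library. DESeq2 gave an adjusted p of 0.11, and an assumed 10% variation gave 0.62. SLC25A5 was level in footprints (1537 and 1564 against 1574 and 1518 CPM; log2 0.00), and its footprints per mRNA did not pass (log2 0.02, edgeR adjusted p = 0.89). Within the 3 ADP/ATP genes, SLC25A4 thus made up 5.21% and 4.88% of wild-type and 3.50% and 3.43% of mutant footprint counts.

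No genotype difference was called for SLC25A44 in either assay. SLC25A44 (chr1:156194104-156212796) had 35.7 and 40.3 CPM of mRNA in wild type and 38.4 and 39.7 CPM in the mutant (log2 0.03, SE 0.121, edgeR adjusted p = 0.89). Its footprints were 28.4 and 31.3 CPM against 34.3 and 29.3 CPM (log2 0.11, SE 0.231, edgeR adjusted p = 0.79), and its footprints per mRNA differed by 0.08 (SE 0.264). The genotypes overlapped in both assays. Its footprints were lower than its mRNA in wild type (edgeR adjusted p = 0.032), a call lost in 6 of the 15 alternatives. Of the 8 listed genes of branched-chain amino acid breakdown, 2 rose in mRNA (DLD and BCAT1) and 1 fell (BCKDK), and in footprints 1 rose (DLD). These shares, 37.5% and 12.5%, stand beside 37.7% and 21.2% of all genes. With the trend of gene density removed BCAT1 mRNA was at log2 0.19 and BCKDK at -0.20, both still called.

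The carriers that serve haem synthesis were not called between genotypes either. SLC25A37 mRNA was 88.5 and 98 CPM in wild type and 89.8 and 92.9 CPM in the mutant (log2 -0.04, SE 0.0808, edgeR adjusted p = 0.73), and its footprints were 34.7 and 34.9 against 22.8 and 32.6 CPM (log2 -0.38, SE 0.237, edgeR adjusted p = 0.26). SLC25A38 (chr3:39383370-39397351) mRNA was 51.7 and 52.4 against 51.4 and 46.3 CPM (log2 -0.09, SE 0.107, edgeR adjusted p = 0.55), and its footprints were 44.1 and 46.2 against 32.2 and 39.1 CPM (log2 -0.37, SE 0.208, edgeR adjusted p = 0.2). In both genes each mutant footprint value lay below both wild-type values, without passing the test. The genotypes did not overlap in footprints in 58.8% of all genes. SLC25A28 (mitoferrin-2), the iron carrier of other tissues, had 14.5 and 18.6 against 15.3 and 15.8 CPM of mRNA and too few footprints to test. Of the 13 listed genes of glycine, iron and haem metabolism, 4 fell and none rose in mRNA (30.8% called, against 37.7% of all genes), and 4 fell and none rose in footprints (30.8%, against 21.2%). FECH, which inserts iron to make haem, fell in both assays; its mRNA call was lost without the second wild-type or the first mutant library and its footprint call without the first mutant library, and DESeq2 made neither. SHMT2, which makes glycine in mitochondria, fell in footprints, a call lost without either mutant library; its mRNA call was lost in 7 of 11 alternatives and its sign turned to 0.044 once the trend with gene density was removed. FECH footprints were 239 and 240 CPM in wild type and 184 and 195 CPM in the mutant (log2 -0.35, SE 0.0955, edgeR adjusted p = 0.0042). These genes fell beside the lower summed erythroid markers given above, whose part was not tested.

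Of 10 shuttle enzymes that work with the carboxylate and aspartate carriers, 2 rose and 2 fell in mRNA (lower ACLY, which splits exported citrate, and MDH2, mitochondrial malate dehydrogenase; higher the malic enzymes ME2 and ME1), and 2 rose and 4 fell in footprints. That is 40% called in mRNA, against 37.7% of all genes, and 60% in footprints, against 21.2%. The ACLY call in mRNA was lost with the trend of gene density removed. GOT1, the cytosolic aspartate aminotransferase, had 115 and 116 CPM of mRNA in wild type and 122 and 121 CPM in the mutant, with footprints of 245 and 226 against 308 and 331 CPM. Its footprints rose (log2 0.44, edgeR adjusted p = 3.4e-05) and its footprints per mRNA were higher by 0.35 (SE 0.108, edgeR adjusted p = 0.044), a call lost in 11 of 16 alternatives, among them the fits without each library in turn except the first wild-type footprint library.

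The remaining members were few in counts. SLC25A2, SLC25A48 and SLC25A52 had no count in any library, which allows at most 0.671 to 0.885 CPM in mRNA. SLC25A18, SLC25A27, SLC25A31, SLC25A34, SLC25A47 and SLC25A53 had at most 1 count in any library, and SLC25A41 was not tested. SLC25A16, SLC25A28, SLC25A30, SLC25A35, SLC25A45 and SLC25A51 were tested in mRNA only, and none of them was called. SLC25A51, which carries NAD into mitochondria, had 24.2 and 27.5 CPM of mRNA in wild type (82 and 123 counts) and 3.15 and 2.05 CPM of footprints (5 and 4 counts), and the mutant footprints were 3 and 2 counts. RefSeq lists 4 pseudogenes named after SLC25A51. The 48 members together took 0.484 to 0.518% of the counts of a library, 0.509% and 0.518% in wild-type mRNA, 0.484% and 0.499% in mutant mRNA and 0.511% to 0.516% in the footprint libraries.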

How the data were processed

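The authors deposited raw read counts per Ensembl gene, 1 library per file. Tools listed in the submitters' processing notes are featureCounts, STAR, Bowtie2, Trimmomatic and cutadapt, and the builds are GRCh38 and hg38. The release of the annotation, the strand setting, the counted feature and how multiply matching reads were counted were not given in the sources used here. Per the labels' protocols, mRNA was copied with oligo(dT), and footprints were made with RNase I, size-selected and depleted of ribosomal RNA. Of 20453 gene IDs, 20407 matched a symbol and 46 did not.

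Differences were tested on all genes with edgeR 4.0.16 in R 4.3.3 (quasi-likelihood, legacy set to FALSE), with TMM factors within each assay, filterByExpr by genotype and Benjamini-Hochberg adjustment at 0.05. mRNA and footprints were fitted on 4 libraries each. Footprints per mRNA were the interaction of genotype and assay over 8 libraries, and footprints against mRNA in wild type came from the same model. CPM are counts per 1000000 of each library's TMM-scaled total. The fits were tested on simulated data. Alternatives were RLE factors, library totals, no filter, DESeq2 1.42.0, an assumed variation of 10%, the replicate number as a block, removal of the trend with gene density within 500000 bases, and leaving out each library; summing the footprint libraries was added after seeing the data. Floors of 3 counts cover counting error only, and reads here carry no molecular identifiers, so they are not independent molecules.

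Members and lists were chosen with earlier results of these data known. Values are given for SLC25A44, SLC25A37, SLC25A38, called members (up to 8 per comparison), the 4 highest and 4 lowest in wild-type footprints against mRNA, the highest member of each role, and up to 4 genes of a companion list by smallest p; others were added to describe a group. Levels per coding length were planned and not made, since no protein lengths were used here, so levels are not compared between genes. Coordinates and start windows are RefSeq, GRCh38.p14. Some genes are counted in the totals and not reported here.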

Additional observations from a re-analysis of the deposited data

Results flagged for a closer look

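The genotype effect of SLC25A4 differed between assays: it was lower in footprints than in mRNA by 0.71 on the log2 scale (value -0.71, interaction test of edgeR, adjusted p = 0.0097), with both mutant footprint values below both wild-type values while the mRNA values overlapped. Footprint values of the genotypes did not overlap in 58.8% of all genes. The genotype effect of GOT1 also differed between assays, higher in footprints than in mRNA by 0.35 (edgeR adjusted p = 0.044). The call of SLC25A4 was lost in 5 of 16 alternatives and that of GOT1 in 11 of 16. DESeq2 and the assumed 10% variation were among the settings that lost both calls. SLC25A4 was the 1 call among 32 members tested (3.1%), against 4.13% of all genes, so the members were not called more often than other genes.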

How the results depend on the processing

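Members called were 11 for mRNA, 4 for footprints, 1 for footprints per mRNA and 22 for wild-type footprints against mRNA, and 11, 5, 1 and 23 with the replicate number as a block, which lost SLC25A26 and gained SLC25A13 in mRNA and gained SLC25A22 in footprints and SLC25A10 in footprints against mRNA; same-numbered libraries deviated together little (correlations 0.063 for mRNA and 0.050 for footprints across 7791 genes), so the numbers are not taken to pair the libraries. Without a filter 7 were called in mRNA. DESeq2 called 4 in mRNA, 0 in footprints (3 at an unadjusted p under 0.05) and 0 in footprints per mRNA (1 at an unadjusted p under 0.05). An assumed variation of 10% called 0 in all 3 genotype comparisons (5, 1 and 1 at an unadjusted p under 0.05). With the trend of gene density removed 5 were called in mRNA, and with library totals alone 2 in footprints. Leaving out 1 library gave 6 to 12, 0 to 4, 0 to 1 and 19 to 25. The cause of these shifts was not tested. Over all genes, mRNA calls were 4060, with 3363 unfiltered, 1467 by DESeq2, 313 at 10% and 2280 to 3838 with 1 library left out. Footprint calls were 1950, with 1542, 397, 288 and 274 to 1799; they split 945 higher and 1005 lower, or 1263 and 811 with library totals alone. Footprints per mRNA had 379 calls, 132 by DESeq2, 13 at 10% and 139 to 449 with 1 library left out. Removing the density trend reversed mRNA differences of SLC25A3 (-0.0655), TOMM20 (-0.0029), ABCB10 (-0.13), CS (0.14) and SHMT2 (0.044). Of 418 member values in mRNA, 360 kept their side of the threshold, and those among them that were called kept their direction. The same held for 330 of 352 in footprints, 507 of 512 in footprints per mRNA and 453 of 480 in footprints against mRNA. Changes of direction in values not called were not counted. Footprint libraries summed per genotype gave 1 and 24 calls for the last pair.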

Other observations

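Transporters outside the SLC25 family and the machinery that inserts the carriers also differed in wild-type footprints for their mRNA. Of 14 tested import genes, 11 were higher in footprints and 2 were lower by edgeR, with a median log2 difference of 0.76; over all genes 35.5% were higher and 34.5% lower, with a median of 0.018. TOMM5, a small subunit of the outer membrane translocase, had 35.1 and 25.5 CPM of mRNA and 177 and 168 CPM of footprints (log2 2.52, edgeR adjusted p = 2.8e-33), whereas TOMM40, its channel, had 191 and 193 CPM against 58.6 and 55.5 CPM (log2 -1.77, edgeR adjusted p = 2.4e-28). Of 22 tested mitochondrial membrane transporters outside the family, 13 were higher and 3 lower, with a median log2 difference of 0.38. That is 72.7% called, close to the 70.1% of all genes. Among them the outer membrane pores VDAC1 (log2 -1.88) and VDAC2 (-2.18) were lower in footprints and VDAC3 was higher (0.64). The limits given above on multiply matching reads and on the coding share of a transcript hold for these genes too. MTCH2, an outer membrane insertase of the same protein family as the carriers, was higher (1.14) and its relative MTCH1 lower (-0.35). Between genotypes MTCH1 mRNA fell (377 and 357 against 274 and 295 CPM, log2 -0.36, edgeR adjusted p = 1.7e-11), while its lower footprints (log2 -0.25, edgeR adjusted p = 0.024) lost their call in 7 of 11 alternatives, among them the fits without the second wild-type or either mutant library.

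The 300-base promoter windows (250 bases before to 50 after each RefSeq start, both strands) held the ETS-type letters CCGGAAG in 11 of 50 member entries (22%) and in 10.25% of all entries, and the NRF1 motif in 5 of 50 (10%) and 5.801%. The letters TCAAGGTCA were in 0 and 0.3547%, and TGATGNAA in 1 (2%) and 3.618%. These are matches of letters and not sites.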
